A study of Oryctolagus cuniculus with 35 samples.

Results

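The respiratory chain genes of rabbit lung were taken from the deposited tables by their symbols, as subunits and assembly factors of complexes I to V. Of 23669 genes in the tables, 61 symbols matched the naming pattern (names that begin with NDUF, SDHA to SDHD, SDHAF, UQCR, UQCC, COX4 to COX20, ATP5 or SURF1, SCO1, SCO2 and BCS1L). Of these, 16 were listed at 0 in all 35 libraries and 45 had reads in every library. The 45 genes comprised 28 subunits and 17 assembly factors. Complex I held 24 of them, complex II 2, complex III 6, complex IV 8 and complex V 5.

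Messenger RNA was sequenced from lung pieces of 35 New Zealand rabbits, 7 in each of 5 groups, and each animal gave 1 library. The ceftaroline+MSC, ceftaroline, MSC and NaCl groups all had pneumococcal pneumonia combined with adverse mechanical ventilation, and the healthy group had neither and received saline. Saline (the NaCl group), mesenchymal stromal cells from human umbilical cord (MSC, 3000000 cells per kg intravenously), the cephalosporin antibiotic ceftaroline (20 mg per kg intramuscularly) or both were given 4 h after the bacteria. Lung was sampled at 24 h, or sooner in rabbits that died, so sampling time may differ between animals. The labels give no age or sex. The design sets 4 comparisons of 7 against 7 rabbits: NaCl against healthy, MSC against NaCl, ceftaroline against NaCl, and ceftaroline+MSC against ceftaroline. Animals with pneumonia and ventilation but no treatment are called NaCl lungs.

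The respiratory chain sits in the inner mitochondrial membrane. Complex I (NADH dehydrogenase) takes electrons from NADH in a matrix arm and pumps protons through a membrane arm, and complex II (succinate dehydrogenase) feeds in electrons from succinate. Complex III passes electrons from coenzyme Q to cytochrome c, complex IV (cytochrome c oxidase) hands them to oxygen, and complex V (ATP synthase) uses the proton gradient to make ATP. Assembly factors build the complexes and load their haem, copper and iron-sulfur centres without staying in the finished enzyme. In lung, alveolar type II cells are rich in mitochondria, whereas neutrophils live mainly from glycolysis.

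The libraries held 7567008 to 33209729 recovered reads, and the median library 11137017. The 13 proteins encoded by mitochondrial DNA had transcripts at 0 throughout, so only nuclear-encoded genes are described. Listed at 0 as well were COX4I1, COX5A, COX6B1, COX7A1, COX8A and NDUFA4L2 of complex IV, NDUFA6, NDUFA8, NDUFA10 and NDUFS6 of complex I, ATP5F1E, ATP5MC1, ATP5MPL and ATP5PD of complex V, the complex II factor SDHAF1 and the complex III factor UQCC3. Many of these are used by every cell, so a value of 0 does not show absence of the transcript. SDHA to SDHD were not analysed here.

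Cell type markers differed between the groups. Neutrophil markers summed to a median of 71840 CPM (reads scaled to a common library total) in NaCl lungs and 2866 in healthy lungs, with all 4 tested markers higher in NaCl lungs and CSF3R and MMP9 listed at 0. Their ranges were 14435 to 135420 in NaCl and 1297 to 9721 in healthy lungs. Of 5 macrophage markers 4 were higher, and all 3 tested alveolar type II, all 4 alveolar type I and all 4 ciliated cell markers were lower in NaCl lungs (SFTPC, SFTPD, ABCA3, FOXJ1 and RSPH1 were listed at 0). Of 5 tested endothelial markers 1 was higher and 3 lower, of 4 heart and striated muscle markers 0 were higher and 1 lower, and of 3 red cell markers none was called. The summed neutrophil markers had medians of 10312 in ceftaroline+MSC, 26367 in ceftaroline and 27919 in MSC lungs. In bulk tissue, fewer cells of a type and less RNA per cell cannot be told apart, and the part of cell composition in the differences below was not tested.

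The libraries also carried marks that the groups do not explain. A title ending of PD or PG stood on 5 healthy libraries (4 PD and 1 PG), 3 NaCl libraries and 2 MSC libraries (all PG) and on no ceftaroline library. The ending went with the first letter of the title: NaCl titles with an ending began with I or L and those without with B. MSC titles with an ending began with N and those without with C. Healthy titles with an ending began with A or D and those without with A. In NaCl and MSC lungs the ending and the first letter therefore cannot be told apart. A mark S00 was shared by the 7 healthy libraries and NaCl replicate 2, so it cannot be told apart from health status in the other libraries. The labels do not say what these marks mean, and results are therefore also given by title ending.

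In NaCl against healthy lungs the chain did not move as a block: the iron-sulfur complex I subunit NDUFS1, the complex I assembly factor NDUFAF4 and the complex IV maturation factors COX10 and SCO1 were higher, while COX4I2, accessory subunits of the complex I membrane arm and both complex II assembly factors were lower. By limma (two-sided, adjusted over all 9545 genes tested), 8 of the 45 genes were higher, 12 were lower and 25 did not pass an adjusted p of 0.05. That is 44.4% of the genes called in either direction, where 60.6% of all tested genes were called (29.7% higher and 30.9% lower). The median absolute log2 difference was 0.28 for the 45 genes and 0.72 for all genes, and the median signed difference was -0.07 against 0.00. The count of 8 higher genes was 5 under edgeR (quasi-likelihood test on recovered reads, where 30.3% of all genes were called higher and 30.4% lower) and to 5 without healthy replicate 2, healthy replicate 4, NaCl replicate 1 or NaCl replicate 3, since UQCRC1, UQCC1 and ATP5MC3 lay near the threshold. The authors' deposited table called 8 higher and 12 lower, against 27.2% and 26.2% of its tested genes, and 19 of these 20 were also called by limma.

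**Figure D1:**
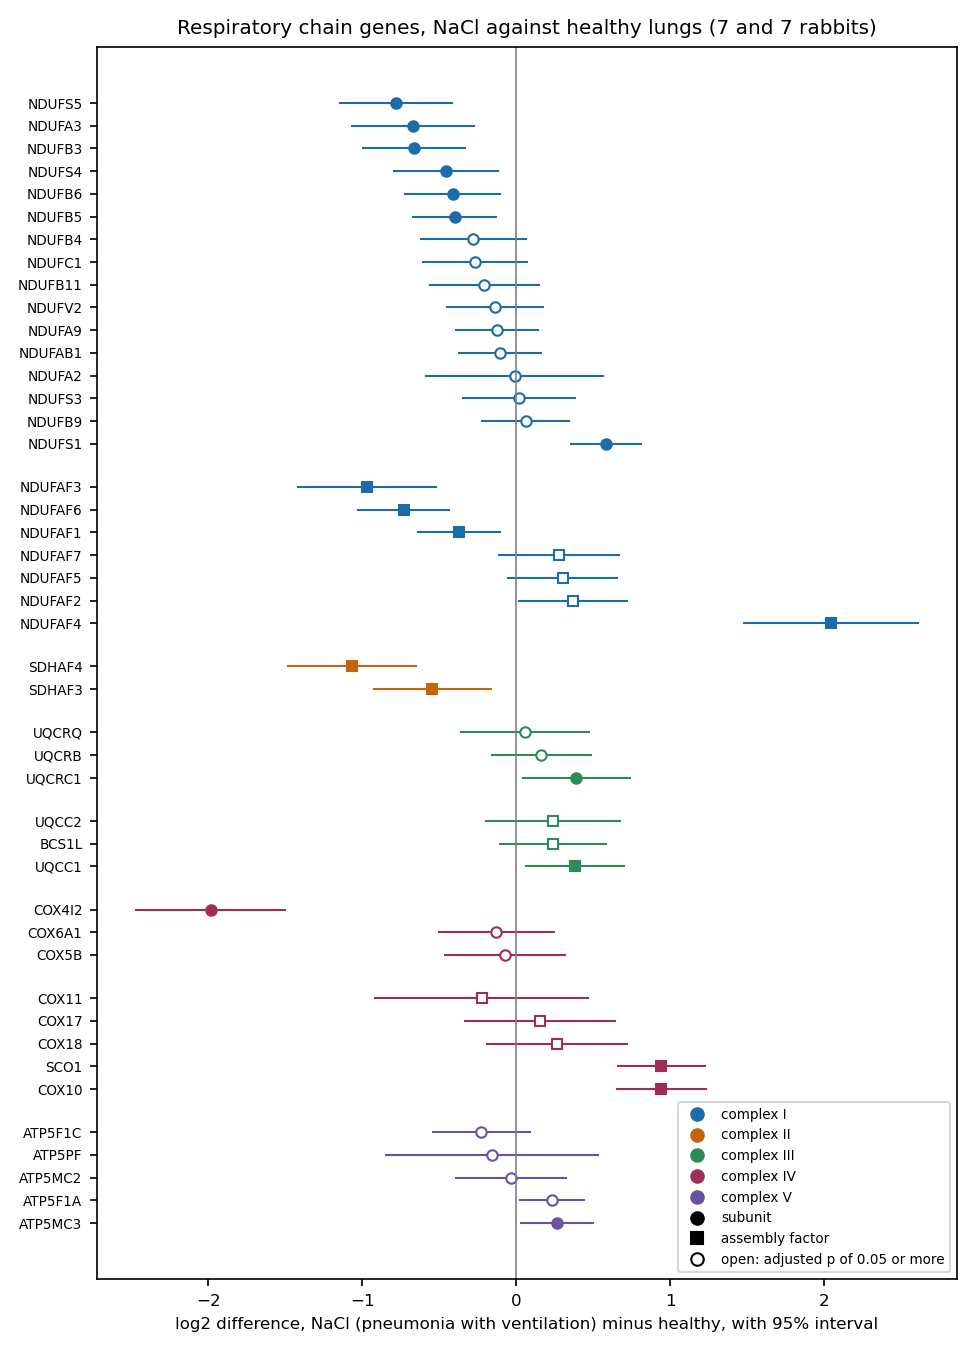
Log2 difference of normalized reads, NaCl minus healthy, with its 95% interval for 44 genes, grouped by complex and by subunit (circle) or assembly factor (square). Filled symbols passed an adjusted p of 0.05: 7 genes lie right of 0 and 12 left of it, from NDUFAF4 at 2.04 to COX4I2 at -1.99.

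Of the 45 genes, 8 had NaCl and healthy libraries that did not overlap. The 5 higher in NaCl lungs included NDUFS1, NDUFAF4, COX10 and SCO1, and the 3 lower were COX4I2, SDHAF4 and NDUFAF6. Over all genes tested, 14.7% had every NaCl library above every healthy library and 15.2% had every one below, which is 1403 and 1448 genes. In the tables these genes are ENSOCUG00000012368 (NDUFS1), ENSOCUG00000002152 (NDUFAF4), ENSOCUG00000012422 (COX10), ENSOCUG00000015719 (SCO1), ENSOCUG00000025424 (COX4I2), ENSOCUG00000025062 (SDHAF4) and ENSOCUG00000006635 (NDUFAF6).

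**Figure D2:**
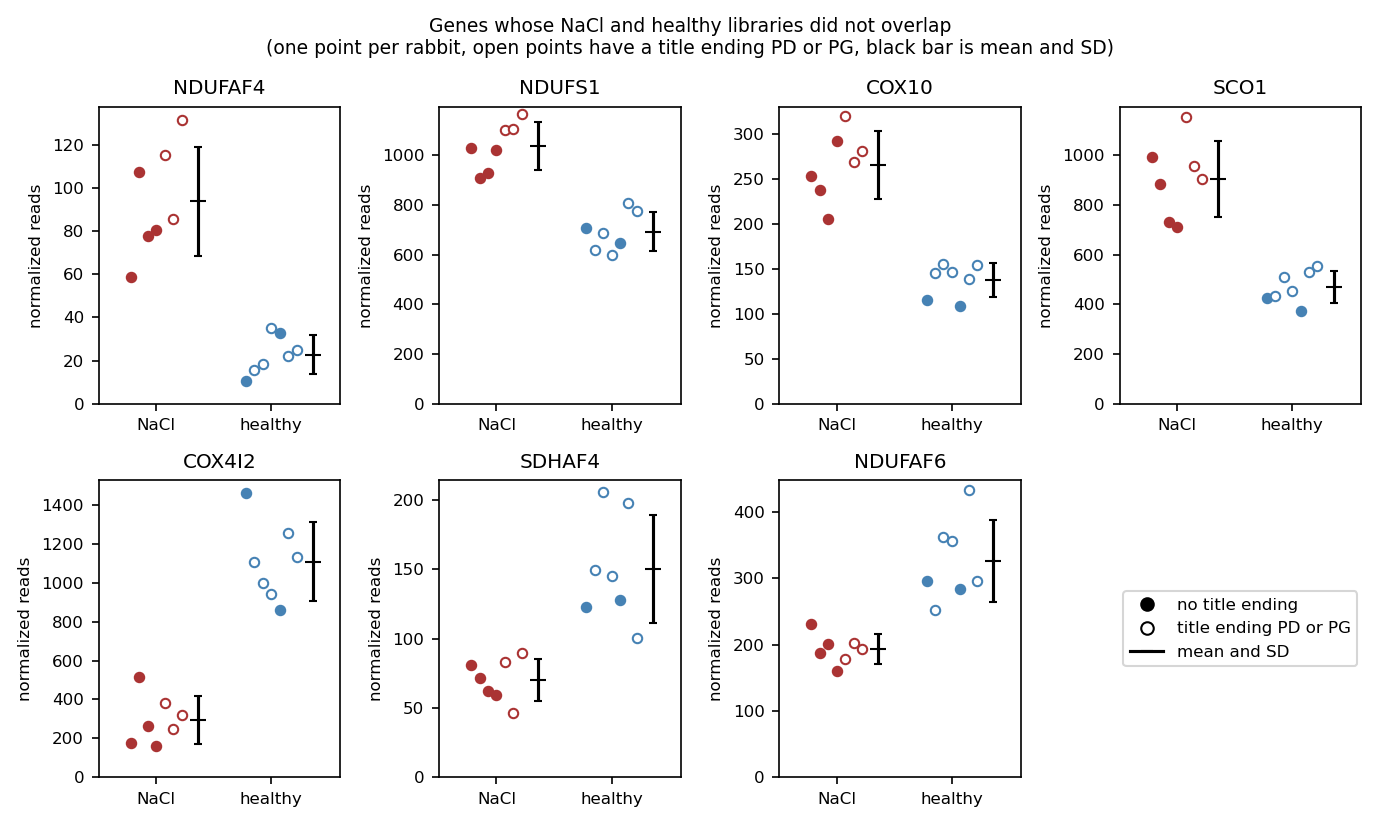
Normalized reads (y axis, from 0) of 7 of the genes without overlap in 7 NaCl and 7 healthy libraries, with the mean and SD as a black bar. Open points have a title ending PD or PG. NDUFS1 lies between 909 and 1166 in NaCl libraries, above all healthy libraries, and COX4I2 between 164 and 515, below all healthy libraries.

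Within the matrix arm of complex I, 2 of 7 subunits were higher and 1 was lower in NaCl lungs, where 29.7% of all genes were higher and 30.9% lower. NDUFS1, the large iron-sulfur subunit of the electron input module, had 909 to 1166 (median 1030.4) normalized reads in NaCl lungs and 600.2 to 808 (median 689) in healthy lungs. Every NaCl library lay above the highest healthy one, with a log2 difference of 0.58 (SE 0.11, adjusted p = 2.29e-04). NDUFS4, an accessory subunit needed to attach the electron input module, was lower in NaCl lungs, at 1035 to 1466 (median 1078) against 1062 to 2456 (median 1516) in healthy lungs. The 2 groups overlapped for NDUFS4, although all 7 NaCl libraries lay below the healthy mean, and the difference was -0.46 (SE 0.16, adjusted p = 0.0218). Of the other matrix arm subunits, NDUFV2, NDUFS3, NDUFA9 and NDUFA2 ranged from -0.14 to 0.02 and did not pass, and neither did NDUFAB1, the acyl carrier protein bound in both arms (-0.11, SE 0.13, adjusted p = 0.475).

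Of the 9 membrane arm subunits, 5 were lower in NaCl lungs and none was higher, where 30.9% of all genes were lower and 29.7% higher. The median log2 difference of the arm was -0.40. It was -0.66 in libraries with a title ending and 0.01 in those without. NDUFS5, a subunit on the intermembrane face, had 999 to 1572 (median 1392) normalized reads in NaCl lungs, against 1375 to 3011 (median 2182) in healthy lungs, a difference of -0.78 (SE 0.17, adjusted p = 0.00102). NDUFB3, an accessory subunit of the distal proton-pumping part, had 569 to 879.7 (median 714) in NaCl lungs and 759 to 1504 (median 1116) in healthy lungs, a difference of -0.67 (SE 0.16, adjusted p = 0.00164). For both genes all 7 NaCl libraries lay below the healthy mean while the lowest healthy libraries overlapped them. NDUFA3, NDUFB6 and NDUFB5 fell by 0.67, 0.41 and 0.40 on the log2 scale (adjusted p = 0.00543, 0.0214 and 0.0127). NDUFB4, NDUFC1, NDUFB11 and NDUFB9 lay between -0.28 and 0.06 and did not pass. In the 3 NaCl and 5 healthy libraries with a title ending 8 of the 9 genes were lower (29% of all genes). None was called in the 4 NaCl and 2 healthy libraries without one, where 20.6% of all genes were higher and 16.8% lower. These sets differ in size, so counts of calls alone cannot show that the effects differ. By limma's test of the difference between the sets NDUFB4 passed (adjusted p = 0.0355). The 5 genes called lower above did not (adjusted p from 0.0636 to 0.0954).

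Complex I assembly factors split. NDUFAF4, which acts with NDUFAF3 on the module that binds coenzyme Q, had 58.6 to 131 (median 85.8) normalized reads in NaCl lungs, against 10.5 to 35.2 (median 22.04) in healthy lungs. All NaCl libraries stood above all healthy ones, and its log2 difference of 2.04 (SE 0.27, adjusted p = 9.52e-06) was the largest rise among the 45 genes. Its partner NDUFAF3 went the other way, with 317 to 674 (median 465) in NaCl lungs and 612 to 1309 (median 914) in healthy lungs and a difference of -0.97 (SE 0.21, adjusted p = 9.08e-04). NDUFAF6, needed early in complex I assembly, had 159.8 to 232 (median 194) in NaCl lungs and 252 to 434 (median 296) in healthy lungs, with no overlap and a difference of -0.73 (SE 0.14, adjusted p = 2.97e-04). NDUFAF1, a factor of the membrane arm intermediate, was also lower (-0.38, SE 0.13, adjusted p = 0.0172). NDUFAF2, NDUFAF5 and NDUFAF7, a late chaperone and 2 enzymes that modify complex I subunits, had positive differences of 0.37, 0.30 and 0.28 that did not pass (adjusted p = 0.0668, 0.132 and 0.207).

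Both measured complex II factors were lower in NaCl lungs. SDHAF4, which helps join the flavoprotein to the iron-sulfur subunit, had 46.7 to 89.5 (median 71.5) normalized reads in NaCl lungs, against 101 to 206 (median 145) in healthy lungs. The groups did not overlap, and the difference was -1.07 (SE 0.20, adjusted p = 2.29e-04). SDHAF3, which protects the maturing iron-sulfur subunit, was a low gene with 18.8 to 30.4 (median 23.3) in NaCl lungs and 25.6 to 43.1 (median 36.8) in healthy lungs, and differed by -0.55 (SE 0.18, adjusted p = 0.0154).

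All 6 complex III genes had a higher mean in NaCl lungs, where 50.2% of all genes had one, but the differences were small. In libraries with a title ending UQCRQ, UQCC2 and UQCRB had differences of -0.42, -0.24 and -0.09. Without an ending they had 0.56, 0.76 and 0.59, and none of these values passed. The differences of UQCRC1, UQCC1 and BCS1L were positive in both sets of libraries. UQCRC1, a core protein of the matrix side, had 3134 to 5194 (median 3948) normalized reads in NaCl lungs and 2089.6 to 3983 (median 2976) in healthy lungs, a difference of 0.39 (SE 0.16, adjusted p = 0.0486). UQCC1, which supports synthesis of cytochrome b, differed by 0.38 (SE 0.15, adjusted p = 0.038). Both were lost under edgeR, at adjusted p = 0.0679 for UQCRC1 and 0.0605 for UQCC1, and without single libraries, at adjusted p up to 0.0989 and 0.0786. The subunits UQCRB and UQCRQ, the chaperone BCS1L that inserts the Rieske protein and the cytochrome b factor UQCC2 had differences of 0.16, 0.06, 0.24 and 0.24 and did not pass (adjusted p from 0.212 to 0.811).

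Complex IV held the largest fall. COX4I2, the isoform of subunit 4 made in lung and known to respond to low oxygen, had 164 to 515 (median 262) normalized reads in NaCl lungs, against 858 to 1459 (median 1104) in healthy lungs. The highest NaCl library was replicate 2, the NaCl library marked S00, and it too stayed under the lowest healthy one, and the log2 difference was -1.99 (SE 0.23, adjusted p = 2.94e-06). Smooth muscle markers ACTA2 and MYH11 had differences of -0.87 and -1.13 between the same lungs and did not pass (adjusted p = 0.325 and 0.165). The direction depended on the title ending. Summed normalized reads of these markers had medians of 11446 in NaCl and 4205 in healthy libraries with an ending. Without an ending the medians were 930 in NaCl and 6089 in healthy libraries. The part of these markers in the COX4I2 difference was not tested. COX5B, the zinc-binding subunit, and COX6A1, the widely expressed isoform of subunit 6A, had differences of -0.07 (SE 0.18) and -0.13 (SE 0.18) and did not pass (adjusted p = 0.742 and 0.536).

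Among complex IV assembly factors, COX10 and SCO1 rose together. COX10, which attaches the farnesyl tail in haem A synthesis, had 205 to 319 (median 269) normalized reads in NaCl lungs and 108 to 156 (median 145) in healthy lungs, a difference of 0.94 (SE 0.14, adjusted p = 2.66e-05). SCO1, which delivers copper to subunit 2 of the oxidase, had 712 to 1155 (median 904) in NaCl lungs and 375 to 553 (median 454) in healthy lungs, a difference of 0.94 (SE 0.13, adjusted p = 2.19e-05). Neither gene overlapped between groups. The copper chaperone COX17, the copper factor COX11 and the membrane insertase COX18 had differences of 0.15, -0.22 and 0.26 and did not pass (adjusted p = 0.584, 0.569 and 0.302).

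Complex V had small differences. ATP5MC3, which encodes the c ring subunit, was called higher in NaCl lungs, at 3419 to 4184 (median 3820.1) normalized reads against 2722 to 3672 (median 3236) in healthy lungs and a difference of 0.26 (SE 0.11, adjusted p = 0.0479). This call was lost under edgeR (adjusted p = 0.0832) and in 10 of the 14 fits that left out a library. ATP5MC2 encodes the same mature protein, so reads of the 2 genes may be shared, and it differed by -0.03 (SE 0.17, adjusted p = 0.873). The alpha subunit ATP5F1A lay just outside the threshold (0.23, SE 0.10, adjusted p = 0.053), with all 7 NaCl libraries above the healthy mean. The gamma subunit ATP5F1C and the coupling factor ATP5PF had differences of -0.23 (SE 0.15) and -0.16 (SE 0.32) and did not pass (adjusted p = 0.194 and 0.685).

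The counts of higher and lower genes differed between libraries with and without a title ending. With an ending (3 NaCl and 5 healthy libraries), 5 of the 45 genes were higher and 19 lower, with a median log2 difference of -0.41, where 27.1% of all genes were higher and 29% lower. Without one (4 NaCl and 2 healthy libraries), 8 were higher and 2 lower, with a median of 0.27, where 20.6% of all genes were higher and 16.8% lower. The corresponding medians over all genes were -0.03 and 0.01. For the 28 subunits the medians were -0.50 with an ending and 0.27 without, and for the 17 assembly factors they were 0.23 and 0.27.

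A test of the difference itself (limma, an interaction of disease and title ending over all genes, chosen after seeing the data) called 5 of the 45 genes, or 11.1%, where 9.69% of all genes were called. The 5 genes were NDUFA2, COX17, COX5B, COX6A1 and NDUFB4. At an unadjusted p under 0.05 there were 23 genes, and in all 23 the disease effect was lower with an ending than without. They are 51.1% of the 45 genes, where 13.5% of all genes had such a p with a lower effect and 27.1% in either direction. They comprised 20 of the 28 subunits and 3 of the 17 assembly factors, and the median difference was -0.55 for the 45 genes against 0.03 for all genes. Because groups of 2 to 5 libraries enter these fits, and healthy endings were mostly PD while NaCl endings were all PG, the effects of ending letter and disease cannot be told apart within them.

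NDUFA2, an accessory subunit of the electron input module, had the largest such difference. Its NaCl libraries with an ending had 1419, 1522 and 1704 normalized reads, and those without had 2732, 3963, 4003 and 4127. Healthy libraries had 2503 to 3394 with an ending and 1586 and 2502 without. The log2 difference from healthy was -0.86 with an ending and 0.88 without, and the difference between these was -1.74 (SE 0.29, adjusted p = 0.00377). COX17 had 452 to 522 in NaCl libraries with an ending and 869.8 to 1007 in those without, and its disease effects of -0.54 and 0.93 differed by -1.47 (SE 0.29, adjusted p = 0.00831). COX5B had effects of -0.54 and 0.53, COX6A1 of -0.58 and 0.38 and NDUFB4 of -0.66 and 0.25. For all 5 genes the NaCl libraries with an ending lay entirely below those without, as they did for 13 of the 45 genes, where 15.6% of all genes did. The NaCl libraries with an ending lay entirely above those without for 2 of the 45 genes (17.4% of all genes). Among healthy libraries, those with an ending lay entirely above those without for 17 of the 45 genes and entirely below for 0, where 7.21% and 7.11% of all genes did.

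Healthy libraries with an ending had a higher mean than those without for 41 of the 45 genes (median log2 difference 0.30), where 54.7% of all genes had a higher one (median 0.04). NaCl libraries with an ending had a lower mean than those without for 30 of the 45 (median -0.22), where 46.2% of all genes had a lower one (median 0.06). Summed neutrophil markers were also lower with an ending in NaCl libraries: 141471 to 480897 normalized reads in NaCl libraries with an ending and 690285 to 1266829 in those without, and macrophage markers were 7476 to 10854 with an ending and 20094 to 43084 without. In healthy libraries the neutrophil sums were 19874 to 91335 with an ending and 11695 to 19078 without. Summed red cell markers were lower with an ending in NaCl libraries too, at 38371 to 74292 with one and 211228 to 988313 without. Smooth muscle markers were higher with an ending, at 4763 to 17270 in NaCl libraries with one and 449.6 to 1328 in those without. Heart and striated muscle markers were 214 to 534 with an ending and 58.6 to 87.2 without, and endothelial markers 17374 to 20125 with and 9425 to 17153 without. Alveolar type II markers were 28231 to 77867 in NaCl libraries with an ending (median 47818) and 10516 to 33740 in those without (median 17716). Alveolar type I and ciliated markers also overlapped between these NaCl libraries. The part of these marker lists in the split was not tested. Recovered reads of NaCl libraries overlapped, at 9002443 to 14948358 with an ending and 7611988 to 10729707 without.

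Of the 45 genes, 6 were called in the same direction within both sets of libraries, where 26.8% of all genes tested in both were, among them NDUFAF4, SCO1, COX10, COX4I2 and SDHAF4. The log2 differences with and without an ending were 2.23 and 2.03 for NDUFAF4, 1.01 and 1.04 for SCO1 and 0.96 and 1.12 for COX10. COX4I2 gave -1.79 and -2.16, beside smooth muscle sums that did not overlap between the same NaCl libraries, and SDHAF4 gave -1.13 and -0.87. NDUFS1 and NDUFAF6 kept their sign, at 0.52 and -0.58 without an ending, but did not pass there (adjusted p = 0.0541 and 0.0834). NDUFB3 and NDUFS5 fell by 0.95 and 1.12 in libraries with an ending and had differences of -0.18 and -0.25 without one (adjusted p = 0.552 and 0.395).

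**Figure D3:**
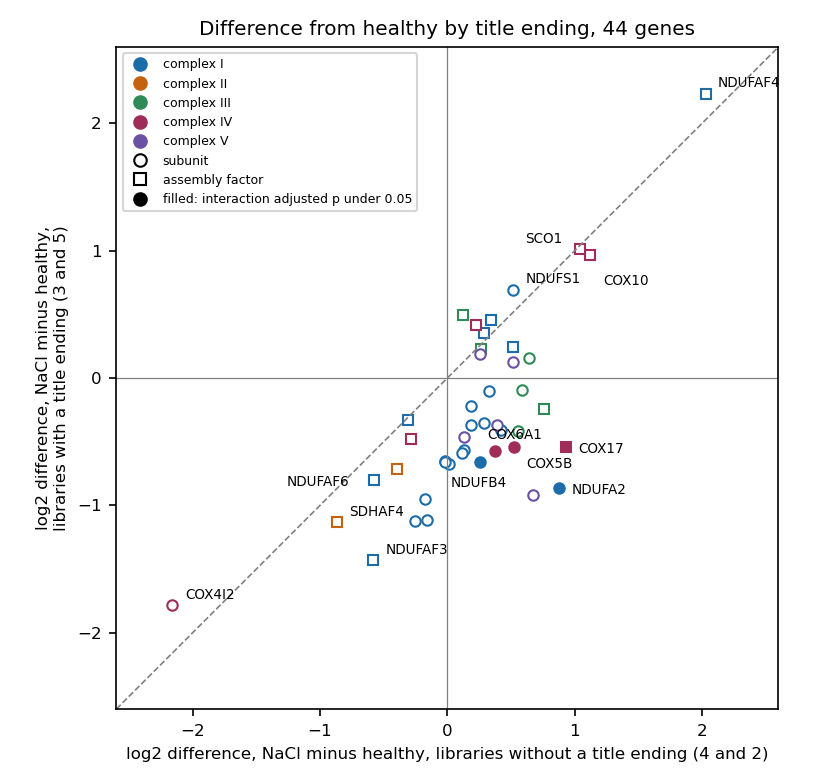
Log2 difference from healthy of 44 genes in libraries with a title ending (y axis) and without (x axis), with circles for subunits and squares for assembly factors. Points on the dashed line had equal values: NDUFAF4, COX10, SCO1, COX4I2 and SDHAF4 lie near it, whereas the filled points, the 5 genes that passed the interaction test, and most subunits lie below it.

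Other genes of the same pathway were examined from lists chosen for their function. Across all genes, 29.7% were higher and 30.9% lower in NaCl lungs. Of 12 tested carrier and coenzyme Q genes, 5 were higher and 3 lower. PDSS1, which makes the coenzyme Q tail, had 295 ± 54.8 normalized reads in NaCl lungs and 62.0 ± 14.5 in healthy lungs (SD, n = 7 each), a log2 difference of 2.24 (SE 0.18, adjusted p = 8.89e-08). COQ8A, an atypical kinase required for coenzyme Q synthesis, had 139 ± 28.4 in NaCl lungs and 895 ± 163 in healthy lungs, a difference of -2.68 (SE 0.16, adjusted p = 7.86e-09). DHODH and GPD2, enzymes that pass electrons to coenzyme Q, rose by 1.22 and 1.17 on the log2 scale (adjusted p = 3.00e-06 and 0.000173).

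Of 16 tested partners in assembly, 4 were higher and 5 lower in NaCl lungs. TMEM126A, a factor of complex I membrane arm assembly, fell by 1.59 (adjusted p = 8.38e-06), and COA7, a complex IV assembly factor, and ACAD9, a partner of NDUFAF1, rose by 2.65 and 1.27 (adjusted p = 7.64e-06 and 0.000886). Of 8 tested regulators of respiratory chain transcription, 5 were higher and none lower: PPRC1, HIF1A, GABPA, GABPB1 and NRF1. TFAM, a transcription factor of the mitochondrial genome, had a difference of 0.49 (SE 0.22, adjusted p = 0.0675) and did not pass. None of these 3 lists had a gene called by limma in the 3 treatment comparisons. At an unadjusted p under 0.05, the assembly partners had 5 higher and 0 lower of 16 in MSC against NaCl lungs (9.58% and 8.12% of all genes) and 6 higher and 2 lower in ceftaroline against NaCl lungs (9.9% and 8.4% of all genes), and each list had at most 3 higher and 2 lower otherwise.

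MSC given alone left no respiratory chain gene past the threshold. Of 9446 genes tested against NaCl lungs, 0 (0%) were called by limma and 0 by edgeR, and DESeq2 called 2 of the 45 genes higher and 1 lower (3.69% of all genes in either direction). At an unadjusted p under 0.05, 10 of the 45 genes were higher and 1 lower, where 9.58% of all genes were higher and 8.12% lower. A higher mean in MSC lungs was seen for 41 of the 45 genes, where 51.1% of all genes had one, and the median log2 difference was 0.18 against 0.01 for all genes. Genes of one library are not independent replicates, so these counts are a description.

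SDHAF4 had 77.7 to 177 (median 103) normalized reads in MSC lungs, against 46.7 to 89.6 (median 71.8) in NaCl lungs. All 7 MSC libraries lay above the NaCl mean though the groups overlapped, and the difference was 0.72 (SE 0.20, adjusted p = 0.159). NDUFAF6 had 190.1 to 344 (median 287) in MSC lungs and 162 to 236 (median 194) in NaCl lungs, a difference of 0.53 (SE 0.15, adjusted p = 0.159). The authors' deposited table called both genes, at adjusted p = 0.0316 for SDHAF4 and 0.0255 for NDUFAF6, where it called 3.33% of all its tested genes. Among libraries without a title ending (5 MSC and 4 NaCl) the differences were 0.73 for SDHAF4 and 0.58 for NDUFAF6, with adjusted p = 0.159 and 0.133. In the 2 MSC and 3 NaCl libraries with an ending they were 0.72 and 0.38, with adjusted p = 0.75 and 0.753. The median over the 45 genes was 0.10 without an ending and 0.23 with one.

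In the complex I membrane arm all 9 subunits had a higher mean in MSC lungs (median 0.35) and 5 had an unadjusted p under 0.05, among them NDUFB6 (0.43, SE 0.16, adjusted p = 0.203) and NDUFC1 (0.46, SE 0.20, adjusted p = 0.249). The factor NDUFAF1, at 0.34 (SE 0.12, adjusted p = 0.204), had all 7 MSC libraries above the NaCl mean. Of the other complexes, UQCRB (0.30, SE 0.16, adjusted p = 0.336), COX11 (0.44, SE 0.32, adjusted p = 0.504) and ATP5MC3 (0.33, SE 0.15, adjusted p = 0.274) had the lowest p. COX4I2 had 148 to 981 (median 274) in MSC lungs and 166 to 517 (median 264) in NaCl lungs, with MSC replicate 6 the highest of the MSC libraries and a difference of 0.07 (SE 0.38), whose 95% interval ran from -0.74 to 0.88. Neutrophil markers moved in the opposite direction, with all 4 tested at an unadjusted p under 0.05 and a median of -1.92, and their part was not tested.

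Ceftaroline alone also left none of the 45 genes past the threshold, and 0 (0%) of 9614 genes were called by limma and 0 by edgeR, and DESeq2 called 1 of the 45 genes higher and 1 lower (5.51% of all genes). At an unadjusted p under 0.05, 6 genes were higher and 2 lower, where 9.9% and 8.4% of all genes were. A higher mean was seen for 35 genes (51.9% of all genes), with a median of 0.14 against 0.02 for all genes. This comparison uses the same NaCl libraries as the MSC and the disease comparisons, so the sets of values are not independent. Each table was normalized separately, so the values printed for 1 NaCl library differ between comparisons. Of 6 tested neutrophil markers 3 had a lower value in ceftaroline lungs at an unadjusted p under 0.05 (median log2 difference -1.64), and their part was not tested.

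NDUFAF4, the factor that rose most with disease, had 49.96 to 104 (median 72.6) normalized reads in ceftaroline lungs, against 73.9 to 163 (median 107) in NaCl lungs. All 7 ceftaroline libraries lay below the NaCl mean, and the difference was -0.62 (SE 0.20, adjusted p = 0.16). NDUFAF6 had 264 to 379 (median 329) in ceftaroline lungs and 199.7 to 292 (median 241) in NaCl lungs, a difference of 0.44 (SE 0.13, adjusted p = 0.137). The authors' deposited table called both, at adjusted p = 0.0383 and 0.0175, among 4.69% of its tested genes. Against the 4 NaCl libraries without a title ending, the state of all ceftaroline libraries, the differences were -0.44 for NDUFAF4 and 0.43 for NDUFAF6 (adjusted p = 0.345 and 0.223), and the median over the 45 genes was 0.06. SDHAF4 (0.58, SE 0.20, adjusted p = 0.169), NDUFB5 (0.32, SE 0.12, adjusted p = 0.183), NDUFB3 (0.34, SE 0.15, adjusted p = 0.237) and ATP5F1C (0.28, SE 0.13, adjusted p = 0.267) followed. The 9 membrane arm subunits all had a higher mean in ceftaroline lungs (median 0.28). The same subunits had lower means in NaCl libraries with a title ending than in those without, from -0.14 for NDUFB9 to -0.60 for NDUFA3 (log2). No ceftaroline library had an ending, and the part of the ending in the arm's difference was not tested. UQCRB and COX11, which had the lowest p of complexes III and IV, gave 0.18 and 0.53 (SE 0.13 and 0.31, adjusted p = 0.468 and 0.378).

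MSC added to ceftaroline was compared with ceftaroline alone, in 14 libraries with no title ending. Limma called 4 of 9924 genes (0.0403%), none of them a respiratory chain gene, and edgeR called 11 (0.111%), again none. At an unadjusted p under 0.05, 11 of the 45 genes were higher and 1 lower, where 5.8% and 5.71% of all genes were. A higher mean in ceftaroline+MSC lungs was seen for 37 genes (50.2% of all genes), with a median log2 difference of 0.12 against 0.00 for all genes. Subunits made up 10 of the 11 genes, and 26 of 28 subunits and 11 of 17 assembly factors had the higher mean. Of 5 tested neutrophil markers 1 had a lower value at an unadjusted p under 0.05 (median -1.56), and their part was not tested.

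All 3 measured complex IV subunits were among the 11. COX6A1 had 7134 to 8809 (median 8584) normalized reads in ceftaroline+MSC lungs, against 5633 to 7617 (median 7065) in ceftaroline lungs, a difference of 0.27 (SE 0.09, adjusted p = 0.394). COX5B had 5876 to 7830.1 (median 6921) in ceftaroline+MSC lungs and 4319 to 6997 (median 5589) in ceftaroline lungs, a difference of 0.32 (SE 0.11, adjusted p = 0.405). For both genes all 7 ceftaroline+MSC libraries lay above the ceftaroline mean, with overlap of the groups. COX4I2 had 377 to 1479.8 (median 634) in ceftaroline+MSC lungs and 191 to 889.5 (median 304) in ceftaroline lungs, a difference of 0.99 (SE 0.39, adjusted p = 0.426). The smooth muscle markers ACTA2 and MYH11 had differences of 1.18 and 0.91 between the same lungs (adjusted p = 0.426 and 0.430), and their part in the COX4I2 value was not tested.

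In complex I, NDUFB3 (0.37, SE 0.13, adjusted p = 0.405), NDUFAB1 (0.40, SE 0.14, adjusted p = 0.416) and NDUFS4 (0.32, SE 0.12, adjusted p = 0.426) had a higher mean in ceftaroline+MSC lungs, with all 7 libraries above the ceftaroline mean. UQCC2 (0.32, SE 0.12, adjusted p = 0.426) led complex III, SDHAF4 (0.33, SE 0.18, adjusted p = 0.448) complex II and ATP5MC2 (0.17, SE 0.12, adjusted p = 0.503) complex V. The authors' deposited table called none of the 45 genes here, where it called 0.963% of its tested genes.

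**Figure D4:**
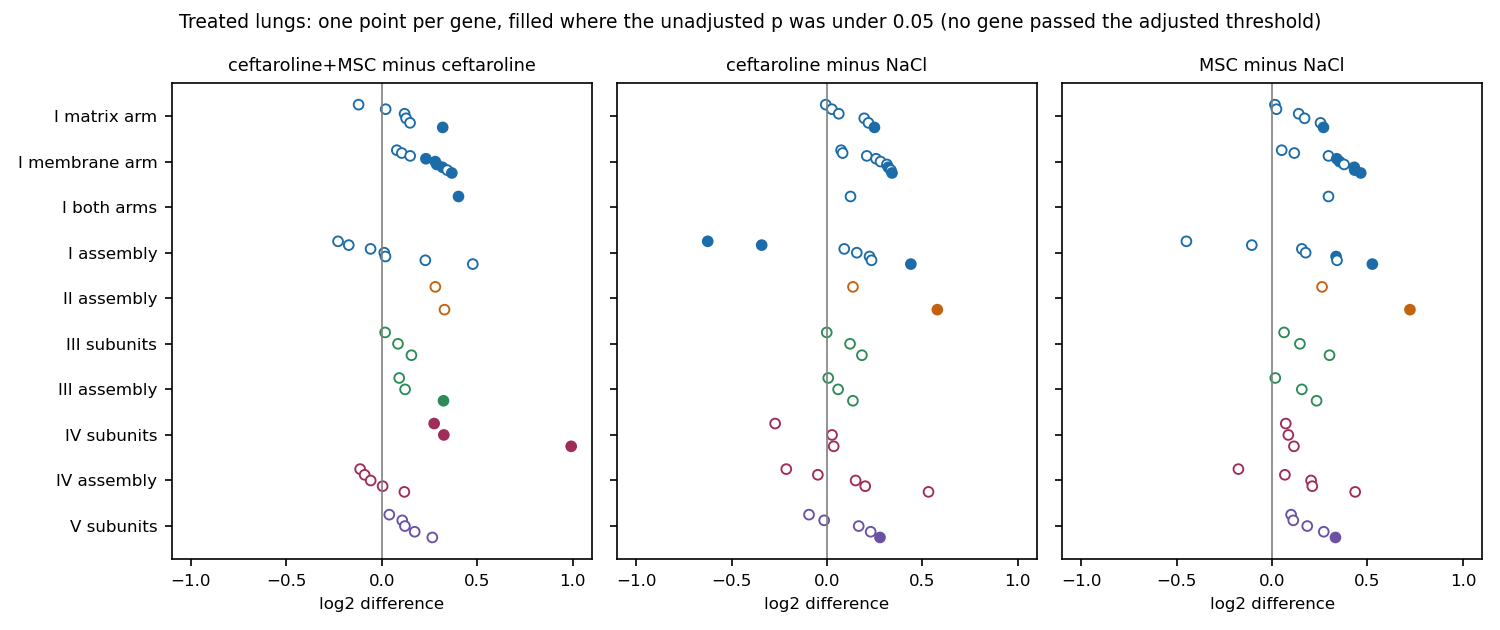
Log2 difference of 44 genes in the 3 treatment comparisons, in rows by complex and role, with filled points for an unadjusted p under 0.05. Membrane arm subunits of complex I lie right of 0 in all 3 panels. Their medians are 0.28 (ceftaroline+MSC minus ceftaroline), 0.28 (ceftaroline minus NaCl) and 0.35 (MSC minus NaCl). No gene passed an adjusted p of 0.05. A title ending stood on 3 NaCl and 2 MSC libraries and on no ceftaroline or ceftaroline+MSC library.

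The effect of MSC with ceftaroline and that without it were compared directly, since the 2 tables share no library. The difference between the effects passed for none of the 45 genes (0 of 9417 genes, or 0%, at an adjusted p under 0.05; 0 of 45 against 5.3% of all genes at an unadjusted one), and its median over the 45 genes was -0.06. A higher mean with MSC in both settings was seen for 37 of the 45 genes, where 34.5% of all 9417 genes had one. Across the 45 genes, which are not independent replicates, the 2 effects had a Spearman rho of 0.38, and across all genes of 0.49.

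The disease comparison and the ceftaroline+MSC comparison share no library either. All 12 genes that were lower in NaCl than in healthy lungs had a higher mean in ceftaroline+MSC than in ceftaroline lungs, and 5 of the 8 that were higher had a lower mean. Of all genes called lower with disease 90.8% had a higher mean in ceftaroline+MSC lungs, and of those called higher 90.3% had a lower one. Spearman's rho between the 2 comparisons was -0.74 across the 45 genes and -0.78 across all 9466 genes.

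Levels were also set on 1 scale over all 35 libraries (CPM, reads scaled to a common library total with TMM factors), as a description with no test. NDUFAF6 averaged 33.2 ± 4.47 in ceftaroline+MSC, 28.2 ± 3.85 in ceftaroline, 30.0 ± 5.70 in MSC, 20.3 ± 2.53 in NaCl and 34.8 ± 6.29 in healthy lungs (SD, n = 7 each). SDHAF4 averaged 14.2 ± 2.64, 11.4 ± 3.26, 12.5 ± 3.48, 7.39 ± 1.58 and 16.0 ± 3.99 in the same order of groups. For both genes NaCl had the lowest mean, and neighbouring groups among the other 4 differed by less than 1 SD. NDUFAF4 averaged 5.49 ± 1.28 in ceftaroline+MSC, 6.41 ± 1.42 in ceftaroline, 7.34 ± 2.09 in MSC, 9.82 ± 2.57 in NaCl and 2.44 ± 0.980 in healthy lungs, so the treated groups lay between the NaCl and the healthy mean. COX4I2 averaged 54.9 ± 28.3, 28.1 ± 17.2, 37.6 ± 30.5, 30.9 ± 12.8 and 118 ± 21.3 in that order, with healthy lungs highest.

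Over the 45 genes, the NaCl group had the lowest of the 5 means for 22 genes and the healthy group for 20, while ceftaroline+MSC had the highest mean for 23. The median of the 45 genes in each library, as a log2 deviation from the healthy mean, was 0.19 in the median ceftaroline+MSC library, 0.10 in ceftaroline, 0.10 in MSC, -0.12 in NaCl and -0.01 in healthy lungs. Libraries ranged from 0.12 to 0.37 in ceftaroline+MSC, from -0.37 to 0.28 in NaCl and from -0.26 to 0.17 in healthy lungs, so these groups overlapped.

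**Figure D5:**
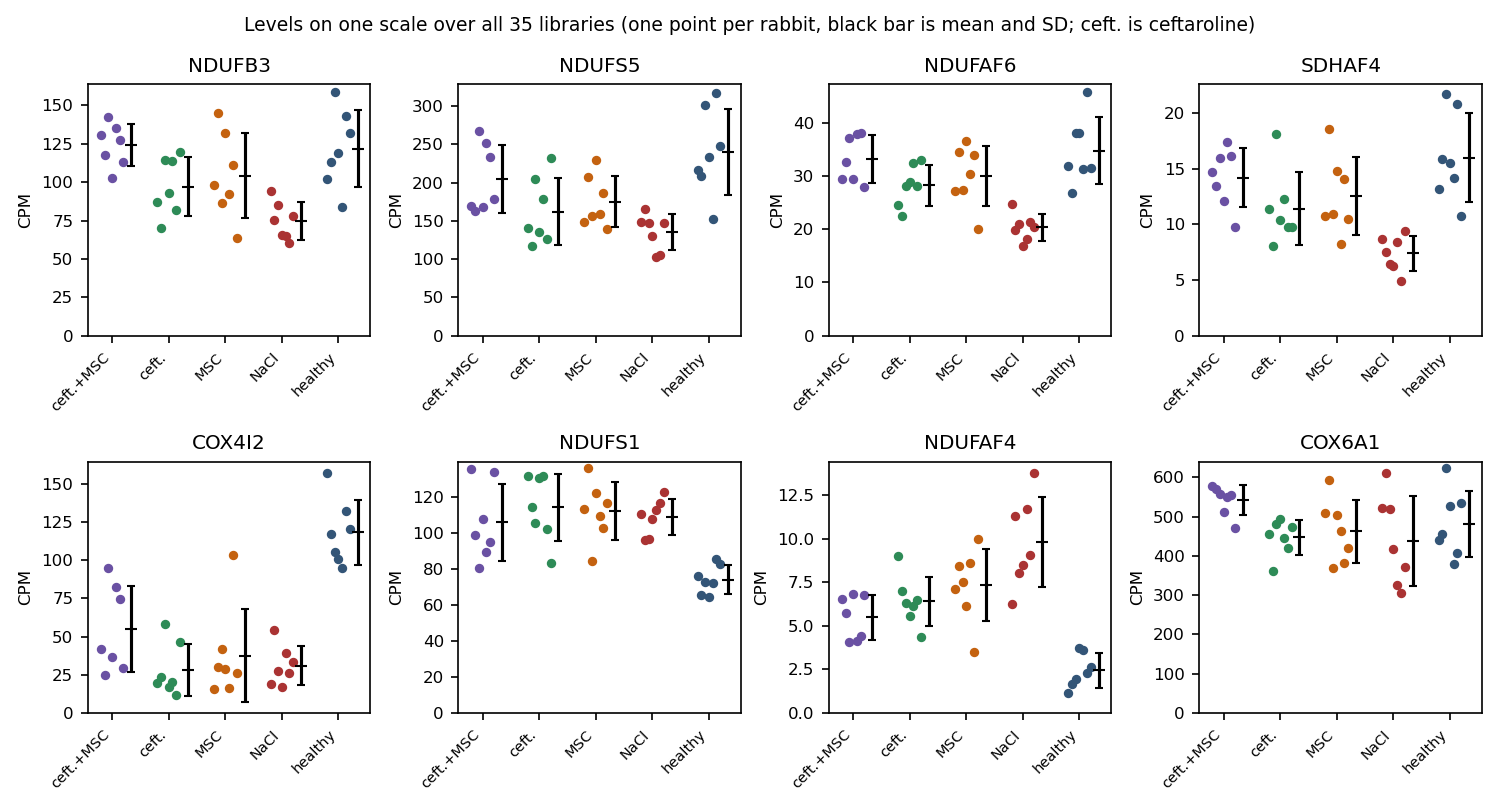
CPM (y axis, from 0) of 8 genes in the 5 groups, one point per rabbit, with the mean and SD as a black bar. NDUFAF6 and SDHAF4 are lowest in NaCl lungs, NDUFAF4 is highest there, and COX4I2 is highest in healthy lungs, with all healthy libraries above the NaCl ones.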

How the data were processed

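Total RNA of 35 lungs was made into stranded mRNA libraries and sequenced as single 75-base reads, per the labels' protocols. The submitters' processing notes name TopHat2 2.1.1, featureCounts 1.5.2 and DESeq2 1.24.0, and the genome build is not given in the sources used here, so no coordinates are printed. The authors deposited 4 tables, each of 14 libraries, with a normalized read signal per gene (counts divided by size factors). They also hold the authors' mean signal, log2 fold change with its standard error, test statistic (a score), p-value and adjusted p-value, as deposited.

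In all libraries 100% of values were whole multiples of 1 read (relative tolerance 1e-06), so whole reads were recovered. Limma 3.58.1 (R 4.3.3, mean-variance trend, two-sided) was run on log2(value + 1) in each table, with no covariate, keeping genes that reached 10 in 7 or more libraries. Calls have a Benjamini-Hochberg adjusted p under 0.05 over all genes tested. Fold changes on this scale understate changes of low genes. EdgeR 4.0.16 and DESeq2 1.42.0 were run on recovered reads as alternatives. All p-values without a tool name are from limma. CPM over 35 libraries used TMM scaling. All 45 genes passed the filter in each table and matched a RefSeq symbol. In 595 pairs no 2 libraries agreed within sampling noise (chi-square per degree of freedom at least 37.2), and the libraries are of separate rabbits.

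Tested on simulated data, limma recovered 24 of 50 genes changed by 1 on the log2 scale in the disease comparison, 11 of 50 in the MSC, 18 of 50 in the ceftaroline and 23 of 50 in the ceftaroline+MSC comparison. The simulated disease data gave 121 calls among 9545 genes, 9 of them false, where 60.6% of genes were called in the real comparison. The adjusted threshold was therefore stricter in the simulation, and its recovery does not carry over to the disease comparison. Simulated MSC, ceftaroline and ceftaroline+MSC data gave 91, 105 and 104 calls, where limma called 0, 0 and 4 genes in the real comparisons. For these the threshold was looser in the simulation, so its recovery does not carry over to the real treatment comparisons either. The genes, the lists and the marker lists (neutrophil, macrophage, alveolar, ciliated, endothelial, smooth muscle, heart and striated muscle and red cells) were chosen with earlier results of these data known. Genes are named by a rule: in the disease comparison the 2 called genes of lowest p in each direction per complex and role, elsewhere the lowest p per complex and the 3 next over all complexes, plus isoforms, core subunits and groups of at most 5. Other genes named singly were chosen after their values were seen. The 45 genes of the counts include 1 whose values are not reported here, and figures show the other 44.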

Additional observations from a re-analysis of the deposited data

Results flagged for a closer look

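By limma's test of that difference, the disease effect differed between libraries with and without a title ending for 5 of the 45 genes (11.1%). This share was near the 9.69% of all genes, and the test was chosen after seeing the data. The effect with an ending minus that without was -1.74 for NDUFA2, -1.47 for COX17, -1.07 for COX5B, -0.95 for COX6A1 and -0.91 for NDUFB4. Adjusted p-values were 0.00377, 0.00831, 0.0297, 0.0355 and 0.0355 in the same order. What the ending stands for is not given in the labels.

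On the log2(CPM + 1) scale, a library stood far from the other 6 of its group in 4 of 160 groups examined, over 32 named genes in 5 groups each, or 2.5%, where chance gives about 1 in 20. COX11 had 2.27 CPM in MSC replicate 2, against a group median of 4.49, and the gap to the nearest library was 0.597 of the group's range on that scale, as are the gaps that follow. SDHAF3 had 2.72 in healthy replicate 2 (group median 3.88, gap 0.603 of the range). UQCRQ had 265 in ceftaroline replicate 6 (group median 369, gap 0.616 of the range). NDUFAF1 had 52.4 in healthy replicate 6 (group median 38.8, gap 0.591 of the range), which was above the rest, while the other 3 were below.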

How the results depend on the processing

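In NaCl against healthy lungs the 8 genes called higher were 5 under edgeR, 5 without the filter on low values and 5 at an adjusted p of 0.01, and the 12 called lower were 7 at that threshold. With libraries left out in turn there were 5 to 10 higher genes, 12 to 13 lower genes and a median log2 difference of -0.13 to 0.00. Libraries with a title ending gave 5 higher, 19 lower and a median of -0.41, and those without gave 2 lower and a median of 0.27. COX17 at -0.54 with an ending and ATP5PF at 0.67 without one had the opposite sign to the pooled value and passed there (adjusted p = 0.0398 and 0.0428); the cause was not tested. Under DESeq2, MSC against NaCl lungs gave 2 higher and 1 lower gene and ceftaroline against NaCl lungs gave 1 higher and 1 lower gene, where limma and edgeR gave 0.

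Of 322 alternatives for counts and medians, 305 stayed within the limits of the main values, among them all pseudocounts and TMM scaling. For single named genes 2580 of 2646 alternatives kept the direction and side of the threshold, 52 lost a call, 12 gained one and 2 turned the direction. These include the treatment comparisons, where limma had called none of the 45 genes, so no call could be lost. Of 15 named genes called in NaCl against healthy lungs, 6 were the same under every alternative. ATP5MC3 was the same in 10 of 26, UQCRC1 in 11 of 26 and UQCC1 in 12 of 26. Medians with libraries left out in turn were 0.15 to 0.26 for MSC, 0.10 to 0.18 for ceftaroline and 0.09 to 0.16 for ceftaroline+MSC. With the title number as a replicate block, ceftaroline+MSC against ceftaroline lungs gave 0 called genes in all, against 4 without it, and 0 of the 45 genes either way. Same-number correlations ran from -0.38 to 0.48, and no library correlated best with its own number (0 of 7). With only 7 numbers these values cannot decide whether rabbits were paired, and the labels do not say. Depth limits most the genes with the fewest reads, SDHAF3 and NDUFAF4 among them, where counting error is part of the spread.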
